A study of Rattus norvegicus with 6 samples.

Results

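The respiratory chain genes described here were taken from the deposited gene table of rat liver by a rule on names and position. A row was a candidate if it lay on the mitochondrial chromosome, or if its symbol began as the subunit families of complexes I to V do (Nduf with a subunit letter and number, Sdha to Sdhd, Uqcr, Cox4 to Cox8, Atp5). Of 32623 genes in the table, 126 rows met that rule, 37 on the mitochondrial chromosome and 89 in the nuclear genome. A mean of at least 0.5 FPKM (fragments per kilobase of exon, scaled to each library's total count) over the 6 libraries left 98 members. These were 81 nuclear-coded rows, the rows of all 13 mitochondrial subunit genes and 4 mitochondrial rows that carry no gene name. The 13 are called mitochondrial mRNAs here, with each gene row counted as 1. The other 28 rows, 20 mitochondrial and 8 nuclear, fell under the minimum. Just inside it stood Ndufa1 at 0.632 FPKM and just outside it Atp5pb at 0.470 and Ndufs6 at 0.440 FPKM, so 3 subunits of complexes I and V are hardly or not represented. The muscle isoforms Cox7a1 (0.0633 FPKM) and Cox8b (listed at 0) were also under it.

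The study compared rat livers labelled HCC (hepatocellular carcinoma), which stayed untreated and served as controls, with livers labelled TAE (transarterial embolization, the blocking of the arterial blood supply). Each group had 3 libraries of bulk liver tissue, named here by group and replicate. The strain, age and sex of the rats, the embolic material, the time after the procedure and whether tumour or surrounding liver was taken were not stated in the labels. Nor do the labels tie replicates to separate animals, so a p-value here reflects the spread among these samples, which may be technical.

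The respiratory chain moves electrons through the inner mitochondrial membrane. Complex I (NADH dehydrogenase) and complex II (succinate dehydrogenase, also an enzyme of the citric acid cycle) feed electrons to coenzyme Q, complex III passes them to cytochrome c, and complex IV (cytochrome c oxidase) gives them to oxygen. Complexes I, III and IV pump protons, and complex V, the ATP synthase, uses the returning protons to make ATP. Mitochondrial DNA codes for core subunits of complexes I, III, IV and V, transcribed as long precursors that are cut at the tRNAs between them. All other subunits, and the whole of complex II, come from the nucleus. The liver relies on this system for gluconeogenesis, urea synthesis and fat oxidation.

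Total counts ran from 13448286 to 16604067 per library. The HCC libraries were alike, with correlations across genes of 0.984 to 0.991, while those within TAE were 0.935 to 0.969. TAE replicate 2 stood nearer to the HCC libraries (0.967 to 0.969) than to TAE replicate 3 (0.935), and TAE replicate 3 farthest from HCC (0.924 to 0.938), so results are also given without either. The trimmed-mean (TMM) scaling factors of the TAE libraries were 1.05, 1.13 and 0.893, against 0.966 to 0.995 in HCC. This scaling places TAE replicate 2 lower and TAE replicate 3 higher than the FPKM values do. Alb, the hepatocytes' main secreted protein, stood at 12096 to 15868 FPKM in HCC and at 6948, 5318 and 15304 in TAE, so hepatocyte RNA was present in every library.

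As a group, the subunit genes stood close to their control level after embolization. With edgeR's quasi-likelihood test, 437 of 14499 genes tested passed an adjusted p of 0.05 (3.01%), 392 higher in TAE (2.7%) and 45 lower (0.31%). Of the 98 members 95 entered that test, and 0 passed it. The smallest adjusted p among them was 0.133, for Ndufa4. At an unadjusted p under 0.05 there were 14 members (14.7%), 3 with higher and 11 with lower values in TAE, where 22.7% of all genes reached that level. DESeq2 called 2 of 96 members (2.08%, against 10.5% of all genes), and limma on log2(FPKM + 1) called 0 of 98, against 4.74% of all genes. Log2 changes were small: 74 of 95 members lay within 0.25 of 0 (77.9%), against 42.2% of all genes. Bulk tissue does not tell fewer cells of a type from less RNA per cell, and this holds for every level below.

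**Figure D1:**
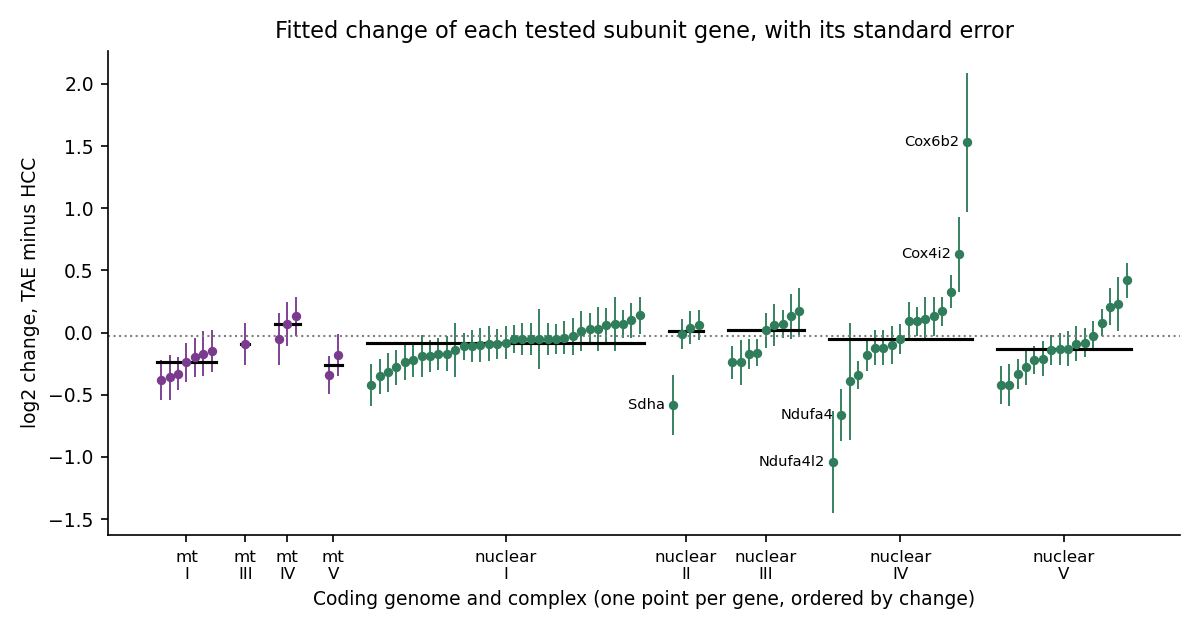
Log2 change from HCC to TAE (vertical axis) for each tested subunit gene, fitted by edgeR, with its standard error as a bar. Genes are grouped by coding genome and complex, black lines are group medians, and the dotted line is the median of all tested genes (-0.03). Most points lie within 0.25 of 0, and the mitochondrial mRNAs of complex I all lie below 0.

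The count turned on which TAE library was left out. Without TAE replicate 1, 0 of 95 members and 1 of all genes passed edgeR's test. Leaving out 1 HCC library gave 0 members and 0 or 1 of all genes. Without TAE replicate 3, 0 of 95 members passed edgeR's test, against 8.33% of all genes. An unadjusted p under 0.05 was found for 17 members (17.9%), against 25.5% of all genes. Without TAE replicate 2, the TAE library most like HCC, 10 of 95 passed (10.5%), when 24.2% of all genes did, 14.6% higher and 9.56% lower. Dropping a library for its likeness to HCC selects on the outcome, so these 10 are a description and not a test of embolization. The 8 lower members were Ndufs1, Ndufv1, Sdha, Ndufa4, Ndufa4l2, Atp5f1a, Atp5mc1 and Atp5mc2, and the 2 higher ones were Cox7a2l and Cox6b2. Limma's voom weighed the libraries by their scatter instead. It gave TAE replicates 1, 2 and 3 weights of 2.36, 0.225 and 0.226, so its TAE side rests mostly on replicate 1. With these weights 28 of 95 members passed (29.5%), 25 of them lower, against 41.2% of all genes, 19.5% lower. In DESeq2, voom and the fits without TAE replicate 2 or 3 the members' share over both directions was below that of all genes. For lower calls alone it was above that of all genes in voom (25 of 95, against 19.5%) and DESeq2 (2 of 96, 2.08%, against 1.65%). Without TAE replicate 2 it was below (8 of 95, against 9.56%).

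The share of mitochondrial RNA in the libraries was close to its control level. Rows of the mitochondrial chromosome took 6.17%, 6.10% and 6.17% of an HCC library's counts and 5.99%, 6.14% and 5.81% of a TAE library's (means 6.15 ± 0.0400 and 5.98 ± 0.165, SD, n = 3). The groups overlapped. The nuclear-coded members took 0.908 ± 0.0265% and 0.843 ± 0.102% of counts. Summed per length, the mitochondrial mRNAs stood 6.54 ± 0.297 times as high as the nuclear-coded members in HCC and 6.63 ± 0.463 times in TAE (summed FPKM, SD, n = 3), a difference of 0.0186 on the log2 scale. Averaged over genes on the log scale instead, that difference was -0.112. The balance of both genomes thus overlapped between the groups on the summed scale, which the most abundant mRNAs dominate.

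Within the mitochondrial mRNAs, the balance between complexes set the groups apart. The 7 mRNAs of complex I summed to 16414, 15915 and 15893 FPKM in HCC and to 13585, 14433 and 12699 in TAE. The 3 of complex IV summed to 29980, 30264 and 30795 FPKM in HCC and to 31985, 32815 and 32023 in TAE. In FPKM, all TAE libraries thus lay below HCC for complex I and above it for complex IV. Divided by the TMM factors, the complex I sums stayed below HCC (12777 to 14228 against 16159 to 16494), while the complex IV sums overlapped (29049 to 35877 against 30125 to 31873). The ratio of complex I to complex IV mRNAs within a library, which no library scaling can move, was 54.8%, 52.6% and 51.6% in HCC and 42.5%, 44.0% and 39.7% in TAE (53.0 ± 1.61 and 42.0 ± 2.20, SD, n = 3). The ratio of complex V to complex IV mRNAs was 49.4 ± 1.24% and 41.5 ± 3.52%, again without overlap. Such a ratio shows unequal change and does not say which side moved. It was set up after the values were seen, and an exact two-sided permutation test of 3 against 3 libraries cannot give a p below 0.10, so no p is given.

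Mt-nd2, a membrane-arm subunit of complex I (mitochondrial chromosome, 3904 to 4942, plus strand), had the lowest log2 change of the 13. It stood at 5481, 5336 and 5332 FPKM in HCC and at 4165, 4697 and 3976 in TAE. The TAE libraries were all below the HCC libraries. The log2 change was -0.38 ± 0.16 (SE), with an adjusted p of 0.212 in edgeR and 0.0152 in DESeq2. Mt-nd3, a small subunit near the point where both arms meet (9451 to 9798), stood at 2102, 2100 and 2198 FPKM in HCC and at 1795, 1948 and 1567 in TAE. Its log2 change of -0.33 ± 0.13 had an adjusted p of 0.185 in edgeR and 0.0411 in DESeq2, and these groups did not overlap either. DESeq2 called only these members, both lower, where it called 1.65% of all genes lower.

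Mt-nd1 (2740 to 3694), next to the quinone site of complex I, read 5697, 5576 and 5513 FPKM in HCC and 4765, 5395 and 4550 in TAE, without overlap (log2 -0.24 ± 0.16, adjusted p = 0.377 in edgeR). The Mt-nd4 row read far lower, with 263, 267 and 288 FPKM in HCC and 248, 232 and 251 in TAE, also without overlap. Mt-nd4l, Mt-nd5 and Mt-nd6 overlapped between the groups, with log2 changes of -0.36, -0.17 and -0.15. Mt-nd4l shares bases 10160 to 10166 with Mt-nd4, and Mt-nd6, the sole mRNA of the minus strand, shares 13543 to 13565 with Mt-nd5. How fragments over such overlaps were counted is not given in the sources used here, so these pairs are less certain.

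Mt-co2 carries the copper centre that takes electrons from cytochrome c (7006 to 7689, plus strand). It stood at 8931, 8923 and 8895 FPKM in HCC and at 10184, 10692 and 9399 in TAE. Every TAE library was above every HCC library, yet the scaled log2 change was 0.13 ± 0.16 (adjusted p = 0.652 in edgeR). Mt-co3 behaved alike in FPKM, with 9199, 9155 and 9315 in HCC against 10151, 9865 and 9998 in TAE (log2 0.07 ± 0.18, adjusted p = 0.823 in edgeR). Mt-co1, the subunit with the oxygen-reducing site and the most abundant mitochondrial mRNA, overlapped, at 11850 to 12586 FPKM in HCC and 11649 to 12625 in TAE. Mt-cyb, the sole mitochondrial subunit of complex III, overlapped too (log2 -0.09 ± 0.17).

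The mitochondrial subunits of the ATP synthase's membrane part had a median log2 change of -0.26, close to that of the complex I mRNAs (-0.24). Mt-atp6 stood at 11215, 11443 and 11526 FPKM in HCC and at 10628, 10979 and 9685 in TAE, without overlap (log2 -0.18 ± 0.17, adjusted p = 0.526 in edgeR). Mt-atp8, whose reading frame overlaps that of Mt-atp6 at bases 7919 to 7961, read 3791, 3759 and 3254 against 3378, 3253 and 2319 FPKM (log2 -0.34 ± 0.15, adjusted p = 0.226 in edgeR). In all, 5 of 13 mitochondrial mRNAs were lower in every TAE library than in every HCC library, where 5.54% of all genes were, and 2 of 13 were higher in every one, where 21.9% of all genes were. After TMM scaling Mt-atp8 took the place of Mt-nd4 among the 5, and 13.5% of all genes were lower in every TAE library. Only Mt-co2 was still higher in every TAE library, where 18.6% of all genes were.

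Set against the sum of the 13 mRNAs, Mt-nd2 made up 8.12 ± 0.0845% in HCC and 6.68 ± 0.355% in TAE, and Mt-co2 13.4 ± 0.0579% and 15.8 ± 0.362% (SD, n = 3). The ratio of Mt-nd2 to Mt-co2, both read from the plus strand, was 61.4%, 59.8% and 59.9% in HCC and 40.9%, 43.9% and 42.3% in TAE. TAE replicate 2 lay with the other TAE libraries here. The ratio of Mt-nd1 to Mt-co1 overlapped, at 48.1%, 45.8% and 43.8% against 40.9%, 44.0% and 36.0%, so the separation depends on the pair taken.

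**Figure D2:**
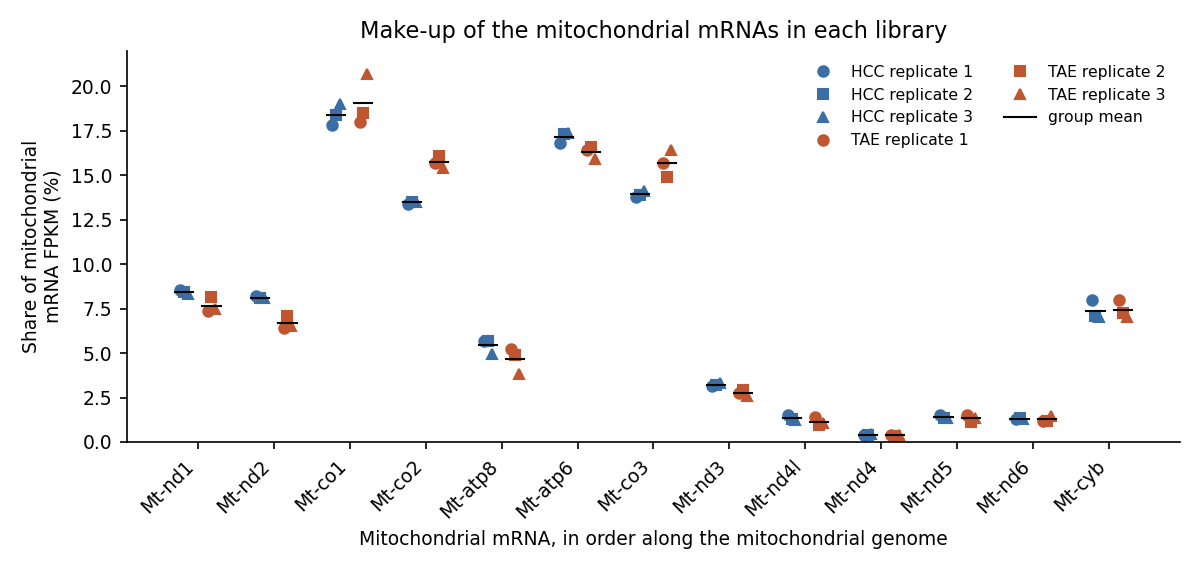
Share of each mitochondrial mRNA in the summed FPKM of the 13 (vertical axis, percent), in order along the mitochondrial genome, with 1 point per library and a line at each group mean. Mt-nd1, Mt-nd2, Mt-nd3 and Mt-atp6 have all TAE points below all HCC points, and Mt-co2 and Mt-co3 have all of them above.

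The 4 mitochondrial rows without a gene name summed to 1091, 1178 and 1227 FPKM in HCC and to 1171, 970 and 1348 in TAE. Of these, 3 were tested, with log2 changes from -0.16 to 0.15. The other 20 mitochondrial rows were below 0.5 FPKM. Poly(A) selection keeps few RNAs that lack a tail, but its part in the levels of these rows was not tested.

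Nuclear-coded members had a median log2 change of -0.08, against -0.03 for all genes tested and -0.18 for the mitochondrial mRNAs. Their medians by complex were -0.08 for complex I (33 tested), 0.01 for complex II (4), 0.02 for complex III (9), -0.05 for complex IV (17) and -0.13 for complex V (16). The summed FPKM of every complex overlapped between the groups before TMM scaling. Divided by the TMM factors, the nuclear sums of complexes II and V were lower in every TAE library than in every HCC library. A set of 27 nuclear-coded members (34.2% of the 79 tested) had TAE replicates 1 and 3 below every HCC library and TAE replicate 2 not, on the FPKM scale. That order was found in 20.9% of all genes and in 0 of the 13 mitochondrial mRNAs. The reverse order, with TAE replicates 1 and 3 above, was found in 0 members and in 4.83% of all genes. This order depends on the scale. After division by the TMM factors it held for 4 nuclear-coded members (5.06%, against 15.1% of all genes). On that scale 15 nuclear-coded members (19%) had every TAE library below every HCC library, Sdha, Ndufs1, Ndufv1, Ndufa4, Ndufa4l2, Atp5f1a, Atp5mc1 and Atp5mc2 among them, and 3 (Cox7a2l, Cox4i2 and Atp5if1) had every one above. Over all members the counts were 20 below (21.1%, against 13.5% of all genes) and 4 above (4.21%, against 18.6%).

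In complex I, 29 of 33 tested nuclear subunits lay within 0.25 of 0 on the log2 scale. Ndufa13, the most abundant, stood at 130, 145 and 134 FPKM in HCC and 133, 158 and 149 in TAE. The exceptions were Ndufa11 (-0.28), Ndufa12 (-0.32), Ndufs1 and Ndufv1, the last pair from the NADH-oxidising module at the tip of the matrix arm. Ndufs1, its largest iron-sulfur subunit, stood at 86.9, 84.0 and 83.8 FPKM in HCC and 67.2, 88.0 and 46.4 in TAE. Ndufv1, which binds FMN and NADH, stood at 91.5, 94.3 and 97.4 in HCC and 71.4, 98.5 and 63.1 in TAE. For both, TAE replicates 1 and 3 were below every HCC library in FPKM and TAE replicate 2 was at the HCC level. Their log2 changes were -0.42 ± 0.17 and -0.35 ± 0.14 (adjusted p = 0.196 and 0.191 in edgeR), and -0.57 and -0.47 without TAE replicate 2 (adjusted p = 0.0273 and 0.0267). Without TAE replicate 3 they were -0.26 and -0.28 (adjusted p = 0.230 and 0.242).

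Not all members of complex I shared that order. Ndufv2, the partner of Ndufv1, stood at 96.3, 98.2 and 96.5 FPKM in HCC and 94.5, 97.7 and 98.2 in TAE. Ndufb6, in the membrane arm, had the highest log2 change of the complex, 0.14 ± 0.15. Ndufa1 had 0 to 4 counts per library and was not tested. Ndufv3 appears on chromosomes 20 and 13, Cox6b1 on chromosomes 1 and 2, and Uqcrb on chromosomes 1 and 7, so reads of these genes may be split between near copies.

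In complex II the catalytic flavoprotein stood apart from its partners. Sdha (chromosome 1, 31545631 to 31570601 in the table's coordinates, plus strand) oxidises succinate. It stood at 253, 230 and 244 FPKM in HCC and at 155, 258 and 106 in TAE, low in TAE replicates 1 and 3 and highest of all in TAE replicate 2 on the FPKM scale. Its log2 change was -0.58 ± 0.24 (adjusted p = 0.212 in edgeR), with -0.89 without TAE replicate 2 (adjusted p = 0.0105) and -0.37 without TAE replicate 3 (adjusted p = 0.264). Sdhb, the iron-sulfur subunit, stood at 98.1, 101 and 107 FPKM in HCC and 98.7, 114 and 101 in TAE, with a log2 change of -0.01 ± 0.12 that turned to 0.04 under scaling by library totals. The membrane anchors Sdhc and Sdhd had log2 changes of 0.06 and 0.04, neither of which passed (edgeR adjusted p = 0.778 and 0.868). The ratio of Sdha to Sdhb was 258%, 228% and 227% in HCC and 157%, 225% and 104% in TAE, so the groups were apart by only the gap between 227% and 225%.

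Promoter sequences are shown for some members of complexes II, IV and V, to set the known motifs of respiratory genes beside them. The 200 bases upstream of the annotated start are printed 5′ to 3′ on the gene's strand, from RefSeq on build GRCr8, with motif matches in capitals. Sdha (chr1:30764353-30764552, plus) and Sdhb (chr5:158547734-158547933, plus) are the unlike partners of complex II. Ndufa4 (chr4:40975560-40975759, minus) and Ndufa4l2 (chr7:65241969-65242168, plus) are the complex IV isoforms described next. Atp5mc2 (chr7:135678219-135678418, minus) and Atp5me (chr14:1464660-1464859, plus) belong to complex V.
Sdha: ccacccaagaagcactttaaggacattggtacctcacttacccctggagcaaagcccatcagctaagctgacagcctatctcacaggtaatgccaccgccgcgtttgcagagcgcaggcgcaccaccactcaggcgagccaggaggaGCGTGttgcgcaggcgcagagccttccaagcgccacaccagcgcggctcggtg
Sdhb: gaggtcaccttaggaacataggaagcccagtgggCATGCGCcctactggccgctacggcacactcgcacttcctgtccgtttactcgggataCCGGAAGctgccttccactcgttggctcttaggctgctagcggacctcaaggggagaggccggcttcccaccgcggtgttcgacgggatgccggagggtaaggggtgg
Ndufa4: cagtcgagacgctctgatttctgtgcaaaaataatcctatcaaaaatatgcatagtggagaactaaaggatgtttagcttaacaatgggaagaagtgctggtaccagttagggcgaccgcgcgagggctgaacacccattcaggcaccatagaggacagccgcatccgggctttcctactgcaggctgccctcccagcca
Ndufa4l2: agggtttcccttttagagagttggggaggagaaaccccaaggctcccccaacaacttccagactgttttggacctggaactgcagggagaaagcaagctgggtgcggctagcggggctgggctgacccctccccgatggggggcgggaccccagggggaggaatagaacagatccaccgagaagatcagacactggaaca
Atp5mc2: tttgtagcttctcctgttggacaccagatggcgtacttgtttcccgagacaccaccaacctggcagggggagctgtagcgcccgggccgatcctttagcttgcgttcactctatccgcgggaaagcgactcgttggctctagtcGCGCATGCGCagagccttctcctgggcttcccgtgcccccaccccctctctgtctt
Atp5me: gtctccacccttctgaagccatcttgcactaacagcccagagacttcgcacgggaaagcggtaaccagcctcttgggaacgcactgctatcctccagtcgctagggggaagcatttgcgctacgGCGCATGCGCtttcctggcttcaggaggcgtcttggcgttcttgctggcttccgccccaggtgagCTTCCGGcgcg

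The capitals mark GCGTG in Sdha, CCGGAAG in Sdhb and, read on the other strand as CTTCCGG, in Atp5me, and GCGCATG in Sdhb, Atp5mc2 and Atp5me. GCGCATG is the core of the site of NRF1, a transcription factor of many respiratory genes. Sdhb has it on the other strand alone (CATGCGC), and in Atp5mc2 and Atp5me matches on both strands overlap in a palindrome. The core occurred in the 250 bases upstream of 11 of 67 member promoters (16.4%), against 3.45% of all 27457 rat promoters searched on both strands. CCGGAAG, the core read by ETS factors such as GABPA (also called NRF2), occurred in 18 of 67 (26.9%), against 7.74%. The hypoxia response cores ACGTG and GCGTG occurred in 22.4% and 37.3% of member promoters, against 16.9% and 27.2% of all. No match lies in the printed bases of Ndufa4 and Ndufa4l2, although the 250-base window of Ndufa4 holds GCGTG further upstream. Of the 81 nuclear-coded rows 69 matched a promoter by symbol, and a match is a description of letters, not a site.

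Complex III had small log2 changes in edgeR. Its 9 tested nuclear members all lay within 0.25 of 0 on the log2 scale. Uqcrh, the hinge protein and the most abundant, stood at 248, 263 and 241 FPKM in HCC and 269, 294 and 254 in TAE. Uqcrfs1, the Rieske iron-sulfur protein, read 159, 153 and 157 against 149, 168 and 122. Uqcrc1, a core protein, read 101, 110 and 111 against 87.7, 117 and 81.1, and Uqcrc2, its partner, 76.8, 79.8 and 76.9 against 75.9, 71.9 and 67.4. Uqcrc2 was the only nuclear member of complex III without overlap in FPKM, and its log2 change was -0.17 (adjusted p = 0.410 in edgeR). After TMM scaling Uqcrc2 and Uqcrfs1 both had every TAE library below every HCC library, as 13.5% of all genes had. Voom with sample weights called Uqcrc1 (log2 -0.38, adjusted p = 0.0101) and Uqcrq (-0.41, adjusted p = 0.0305) lower, where it called 19.5% of all genes lower.

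Complex IV held the widest spread, with log2 changes from -1.04 to 1.53. Ndufa4 (chromosome 4, 38233680 to 38240848 in the table's coordinates, minus strand) was first assigned to complex I and is now known as a subunit of complex IV. It stood at 351, 385 and 355 FPKM in HCC and at 194, 355 and 182 in TAE (363 ± 18.5 and 244 ± 96.3, SD, n = 3). Ndufa4l2, its paralog and a known hypoxia-induced gene (chromosome 7, 70821957 to 70824085, plus strand), stood at 61.9, 63.9 and 74.8 FPKM in HCC and at 30.3, 61.9 and 13.6 in TAE. In FPKM both genes were low in TAE replicates 1 and 3, and in TAE replicate 2 they reached the lowest HCC values. The log2 change of Ndufa4 was -0.66 ± 0.21 (adjusted p = 0.133 in edgeR), with -0.92 without TAE replicate 2 (adjusted p = 0.00638) and -0.54 without TAE replicate 3 (adjusted p = 0.163). That of Ndufa4l2 was -1.04 ± 0.41 (adjusted p = 0.193), with -1.62 without TAE replicate 2 (adjusted p = 0.0122) and -0.67 without TAE replicate 3 (adjusted p = 0.154).

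The other isoforms of complex IV went different ways. Cox4i1, the usual regulatory subunit, stood at 325, 368 and 375 FPKM in HCC and 357, 402 and 410 in TAE. Cox4i2, its isoform of lung and of low oxygen, was scarce, with 29 to 50 counts in HCC and 66 to 84 in TAE, or 2.90, 3.52 and 1.94 against 5.47, 4.17 and 3.77 FPKM. Every TAE library was above every HCC library for Cox4i2 (log2 0.63 ± 0.30, adjusted p = 0.258 in edgeR), but its ratio to Cox4i1 overlapped. Cox6b2, known as the testis isoform of Cox6b1, had 11, 12 and 14 counts in HCC and 61, 17 and 44 in TAE. In FPKM it stood at 1.63, 1.90 and 2.11 against 8.92, 2.18 and 5.64, with TAE replicate 2 just above HCC and a log2 change of 1.53 ± 0.56 (adjusted p = 0.170 in edgeR). Without TAE replicate 2 that change was 1.95 (adjusted p = 0.0103), and without TAE replicate 3 it was 1.45 (adjusted p = 0.202). Divided by the TMM factors, the Cox6b2 values of the groups overlapped.

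Cox6a2, the heart and muscle isoform, overlapped at 1.46 to 3.76 FPKM in HCC and 1.27 to 3.43 in TAE, and its liver counterpart Cox6a1 stood at 205 to 237 and 182 to 240 FPKM. Of the 10 striated muscle markers found in the table, Myh7, Actc1 and Mb were at 0 in every library. The list summed to 8.11 to 14.6 FPKM in HCC and 21.2 to 39.2 in TAE, with Tnnt2 its highest member. The markers did not move together. Tnnt2, Tnnt3 and, at 0.0300 FPKM or less, Myh4 were higher in every TAE library than in every HCC library. Ckm and Actn2 were lower in every one, and Acta1 and Myh6 overlapped. The 3 tested, Tnnt2, Tnnt3 and Ckm, had log2 changes of 1.60, 1.05 and -1.16, and 0 passed edgeR's test. Cox5b, the zinc-binding subunit, stood at 182, 209 and 205 FPKM in HCC and 170, 182 and 140 in TAE, while Cox5a stood at 140, 151 and 124 against 157, 176 and 151. Neither passed, with log2 changes of -0.34 ± 0.11 and 0.17 ± 0.12 (adjusted p = 0.149 and 0.418 in edgeR). Their ratio did not overlap, at 130%, 138% and 166% in HCC and 109%, 104% and 92.9% in TAE.

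Cox7a2l (chromosome 6, 6695827 to 6709783 in the table's coordinates, minus strand) joins complexes III and IV into supercomplexes. It stood at 94.0, 94.0 and 92.7 FPKM in HCC and 121, 120 and 123 in TAE. In FPKM the groups were far apart relative to their SDs of 0.800 and 1.48 (n = 3). Divided by the TMM factors of 1.05, 1.13 and 0.893, the TAE values spread wider, though each stayed above every HCC library. Its scaled log2 change was 0.33 ± 0.13, with an adjusted p of 0.201 in edgeR, with 0.41 without TAE replicate 2 (adjusted p = 0.0470) and 0.24 without TAE replicate 3 (adjusted p = 0.192).

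**Figure D3:**
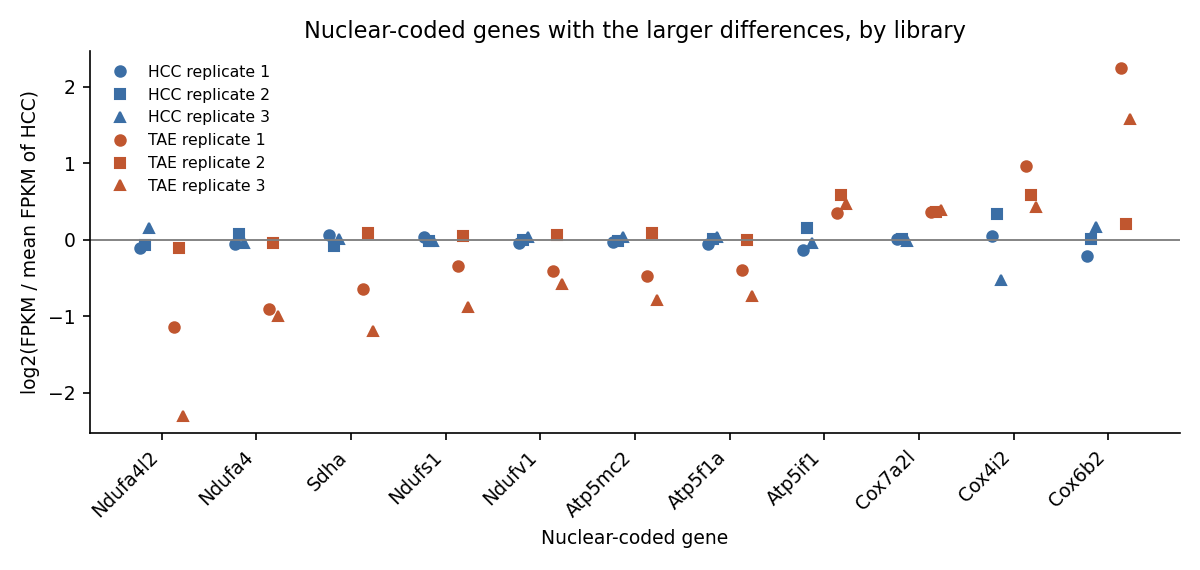
Level of 11 nuclear-coded genes in each library as log2 of FPKM over the mean FPKM of HCC (vertical axis), with 1 point per library. The 7 genes on the left have TAE replicates 1 and 3 below 0 and TAE replicate 2 near 0. After TMM scaling, these 7 have every TAE library, replicate 2 included, below every HCC library. Atp5if1, Cox7a2l, Cox4i2 and Cox6b2 have all TAE points above all HCC points, which holds for the first 3 of them after TMM scaling too.

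Complex V had the lowest nuclear median, and its parts differed. Atp5f1a, the alpha subunit of the catalytic head, stood at 456, 475 and 486 FPKM in HCC and 360, 473 and 284 in TAE. Atp5f1b, the beta subunit that carries the catalytic sites, was the most abundant nuclear member and stood at 555, 595 and 573 against 558, 575 and 546. The alpha subunit was low in TAE replicates 1 and 3 in FPKM (log2 -0.42 ± 0.15, adjusted p = 0.176 in edgeR). Its log2 change was -0.54 without TAE replicate 2 (adjusted p = 0.0286) and -0.31 without TAE replicate 3 (adjusted p = 0.173). The beta subunit overlapped (log2 -0.09, adjusted p = 0.728).

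The rotor ring of the synthase is built from identical copies of subunit c, coded by 3 nuclear genes. Atp5mc2, the most abundant of them, stood at 435, 439 and 457 FPKM in HCC and 320, 473 and 258 in TAE. Atp5mc1 read 142, 155 and 152 against 114, 149 and 109, and Atp5mc3 247, 271 and 254 against 229, 263 and 199. All 3 were lowest in TAE replicates 1 and 3. Without TAE replicate 2, Atp5mc2 and Atp5mc1 had log2 changes of -0.60 and -0.40 (adjusted p = 0.0150 and 0.0481 in edgeR), and without TAE replicate 3 of -0.30 and -0.31 (adjusted p = 0.269 and 0.172). Atp5me, a small membrane subunit, was lower in every TAE library in FPKM but not after TMM scaling, at 113, 126 and 125 FPKM against 135, 153 and 141 (log2 -0.28 ± 0.14, adjusted p = 0.290 in edgeR).

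Atp5if1 (chromosome 5, 150719569 to 150723321 in the table's coordinates, minus strand) codes for the inhibitor that binds the synthase when the membrane potential collapses and limits its reverse running. It stood at 89.8, 109 and 95.9 FPKM in HCC and at 125, 148 and 136 in TAE. Every TAE library, replicate 2 included, was above every HCC library, with means of 98.2 ± 9.76 and 136 ± 11.5 (SD, n = 3). The log2 change of 0.42 ± 0.14 did not pass (adjusted p = 0.146 in edgeR). The ratio of inhibitor to beta subunit was 16.2%, 18.3% and 16.7% in HCC and 22.3%, 25.7% and 24.9% in TAE.

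**Figure D4:**
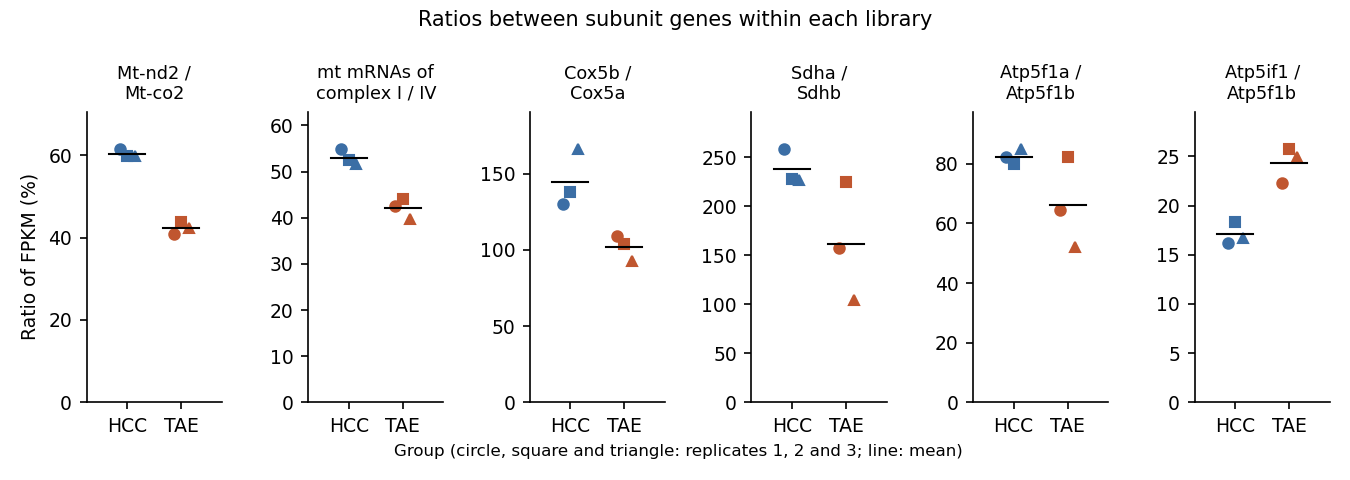
Ratios of FPKM between members within each library (vertical axes, percent, each from 0), with 1 point per library and a line at each group mean. TAE points lie below HCC points in the first 4 panels, overlap for Atp5f1a over Atp5f1b, and lie above for Atp5if1 over Atp5f1b.

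In all, 17 such ratios were set side by side, and 8 did not overlap between the groups. The pairs were chosen with results known, some share genes, and no share over other pairs of genes was computed. The shares of single genes that follow are not a background for them. Over single members, 11 of 95 had every TAE library above every HCC library in FPKM (11.6%, against 21.9% of all genes) and 7 had every one below (7.37%, against 5.54%). In either direction 27.5% of all genes were without overlap.

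Genes that build, supply or control the chain were read from 13 lists with 159 genes tested. Of these, 1 passed edgeR's test, where 3.01% of all genes did. That gene was Ucp2, which codes for an uncoupling-family carrier of the inner membrane and is abundant in immune cells. It stood at 79.5, 94.1 and 92.5 FPKM in HCC and rose to 165, 154 and 134 in TAE (log2 0.71 ± 0.13, adjusted p = 0.0442). Its adjusted p ran from 0.0106 to 0.223 when 1 library was left out, and it did not pass without TAE replicate 1 (0.152) or without HCC replicate 1, 2 or 3 (0.205, 0.149 and 0.223). The 10 macrophage and monocyte markers summed to 1145 to 1418 FPKM in HCC and 4025 to 5488 in TAE. Of them 8 passed, all higher, where 2.7% of all genes passed as higher. Their part in the level of Ucp2 was not tested.

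No assembly factor passed, where 3.01% of all genes did. The 17 of complex I had a median log2 change of -0.20 and ranged from Ndufaf4 at -0.57 to Tmem126a at 0.03, the 9 of complexes II and III a median of -0.21, the 22 of complex IV -0.14 and the 4 of complex V -0.08. Sdhaf3, which helps to mature Sdhb, stood at 23.3, 25.4 and 27.7 FPKM in HCC and 11.3, 20.0 and 12.1 in TAE (log2 -0.89 ± 0.23, adjusted p = 0.0835 in edgeR). Every TAE library was below every HCC library for it. Cycs, the cytochrome c of somatic tissues, read 159, 173 and 170 against 138, 179 and 115, and Cyc1, a complex III subunit that the naming rule does not catch, 103, 106 and 111 against 80.7, 115 and 77.4.

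The other routes into coenzyme Q had the lowest median, -0.42 over 8 genes, all negative and 0 passing. Over all genes tested, 53.1% were negative and 3.01% passed. Etfa, which passes electrons from fatty acid oxidation, stood at 111, 117 and 116 FPKM in HCC and 78.9, 77.6 and 79.8 in TAE (log2 -0.59 ± 0.14, adjusted p = 0.0634 in edgeR), low in all TAE libraries. The 17 citric acid cycle genes had a median of -0.17 and ranged from Fh, fumarase, at -0.49 (adjusted p = 0.0632) to Idh2 at 0.15. The 27 genes of mitochondrial DNA upkeep and transcription had a median of -0.31, with 23 negative (85.2%) and 0 passing. The 13 of coenzyme Q synthesis stood at -0.04, the 11 translation factors at -0.15, the 9 biogenesis regulators at -0.20, the 9 mitophagy genes at -0.05 and the 11 antioxidant and uncoupling genes at 0.03.

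Cell type markers differed between the libraries as well. The 12 hepatocyte markers summed to 22400, 26167 and 27719 FPKM in HCC and to 12982, 9802 and 27917 in TAE. Of them 0 passed, where 3.01% of all genes did. TAE replicate 2 had the lowest sum. As a mean over the 12 markers of scaled log2 values against HCC, TAE replicates 1, 2 and 3 stood at -0.82, -1.56 and -0.12, and the HCC libraries at -0.37, 0.20 and 0.17. The 8 fibroblast and stellate cell markers summed to 404 to 650 FPKM in HCC and to 2829, 1051 and 1408 in TAE, with 1 passing, and the macrophage sum was 5140, 4025 and 5488 in TAE. Both sums were lowest within TAE in replicate 2. The part of these cells in the members' values was not tested.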

How the data were processed

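RNA from rat liver was poly(A)-selected and made into strand-specific paired-end libraries, per the labels' protocols. The authors deposited 1 table with raw read counts per gene and FPKM values for 6 libraries. The build named in the submitters' processing notes is mRatBN 7.2; the aligner, the counting tool, its strand setting and its treatment of multiply mapped reads were not stated in the labels, so reads of near copies and overlapping genes may be split or shared. The deposited FPKM equal counts per kilobase of exon, scaled to the library's total count, with 100% of values within 0.006 of that recomputation. Whether the table's coordinates are of that build was not settled; they are printed as given, and promoters come from RefSeq GRCr8. A longer NRF1 motif was searched first and then replaced by its core.

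The counts were tested with edgeR 4.0.16 (filterByExpr, TMM scaling, quasi-likelihood F test, two-sided, Benjamini-Hochberg over all 14499 tested genes, threshold 0.05), with 3 libraries per group and no block. Alternatives used DESeq2 1.42.0, limma 3.58.1 on log2(FPKM + 1) or log2(FPKM + 0.1), voom with sample weights, other scalings and filters, and each library left out. Counts of members on FPKM divided by the TMM factor were added after the values were seen. Medians, shares and ratios are descriptions with no test. Depth limits genes with few counts such as Cox6b2 and Cox4i2.

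The members, the lists and the pairs of genes were chosen with earlier results of these data known. Named were all mitochondrial mRNAs, members that passed, the most abundant, highest and lowest nuclear member of each complex, core subunits and tissue isoforms, and from other lists the members that passed or else the extremes. Chosen after their values were seen were Cox7a2l, Cox5b, Atp5mc1, Atp5mc3, Uqcrc2, Ndufv2 and Cyc1 among others. Of 258 listed entries 243 matched a symbol in the table. The result for 1 member is not reported here.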

Additional observations from a re-analysis of the deposited data

How the results depend on the processing

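Among the members, 0 passed in edgeR, also with other scalings, filters or limma on log2 FPKM. DESeq2 called 2, voom with sample weights called 28, and leaving out 1 library gave 0 to 10. Over all genes the 437 calls became 1664 with DESeq2, 1036 with library totals alone, 709 and 701 with limma on log2(FPKM + 0.1) and log2(FPKM + 1), 5975 with voom weights and 829 with no filter, and 0 to 3569 with 1 library left out. For the other pathway lists the 1 call became 10 with DESeq2, 2 with library totals, 2 with limma at either pseudocount, 64 with voom weights and 0 to 35 with 1 library left out. The cause of these moves was not tested.

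The median log2 change of nuclear-coded members was -0.17 to -0.03 over the other settings and -0.13 to -0.02 with 1 library left out, and that of mitochondrial mRNAs -0.20 to -0.13 and -0.24 to -0.10. The share of mitochondrial counts differed by -0.167 percentage points, -0.247 to -0.0822 with 1 library left out. The log2 ratio of mitochondrial to nuclear FPKM differed by 0.0186, by -0.112 as a mean of log2 values, and by -0.0279 to 0.0728 with 1 library left out, so its sign is not settled.

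With the replicate number as a block, edgeR called 0 genes in all, 0 members and 0 of the other lists, and 6 members had an unadjusted p under 0.05 (6.32%, against 20.6% of all genes). Same-numbered libraries did not deviate together (r across genes 0.10, -0.209 and 0.0335), so the numbers were not read as pairs.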
